A study of Homo sapiens with 8 samples.

Results

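Gene expression of NB4 and MM6 (MonoMac 6), a pair of established human acute myeloid leukaemia lines, was compared in the 4 control libraries of a METTL14 knockdown experiment, out of 8 libraries in all. Each control group held 2 libraries of poly(A) RNA from cells transduced with a pLKO.1 lentivirus that carries the non-specific hairpin shNS and then selected with puromycin at 0.5 µg/mL. The other 4 libraries came from the same lines with the METTL14 hairpin shM14-#2, 2 for each line, and enter here only as a second set of samples for the line difference. The libraries were chosen by label alone, and no measured value was used to pick them. The comparison and the gene lists were set with earlier results of these data known. Every control cell therefore carries an integrated hairpin vector, and each group stands for a single cell line. Both lines carry the label acute monocytic leukemia, whereas NB4 is widely known as an acute promyelocytic leukaemia line. The labels do not say whether the 2 replicates of a group were separate cultures, so p-values measure the spread between these libraries, which may be technical. Handling that differed between the lines cannot be told apart from the line itself, since no library mixes them.

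Promyelocytes are the granulocyte precursors that fill the primary granules with myeloperoxidase and serine proteases, while monocytes carry CD14, lysozyme, calprotectin (S100A8 with S100A9) and the class II antigen presentation genes. NB4 carries the PML-RARA fusion of promyelocytic leukaemia, in which a retinoic acid receptor is turned into a repressor of maturation genes. MM6 carries a fusion of KMT2A with MLLT3, and leukaemias of that kind are known for HOXA genes, MEIS1 and PBX3. Gene-level values cannot separate a fusion transcript from its parent genes. In bulk RNA, fewer cells that express a gene and less RNA per cell cannot be told apart either.

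Depth was 23407250 and 28814911 reads over the 16726 listed genes in the NB4 controls, and 23826956 and 26054707 reads in the MM6 controls. Values are RPKM (reads scaled to gene length and library size), and 12450 genes reached 1 RPKM in at least 2 of the 4 libraries. The MM6 replicates stood further apart than the NB4 replicates. The SD of the difference between replicates was 0.34 in MM6 and 0.15 in NB4 on the log2(RPKM + 1) scale, and 190 tested genes in MM6 against 24 in NB4 differed by at least 2-fold. Immediate early genes were high in MM6 replicate 1: FOSB, a subunit of the AP-1 factor, was at 177 and 5.41 RPKM in replicates 1 and 2, KLF6 at 75.5 and 3.67 RPKM and JUN at 201 and 16.9 RPKM. In NB4, KLF6 was at 17.7 and 17.5 RPKM. Interferon-induced genes were high in MM6 replicate 2, where IFI27 was at 258 RPKM against 50.9 RPKM in replicate 1, and 9 of the 40 listed interferon response genes were at least 2-fold higher there. Of the genes called below, 13 of 1671 and 54 of 1986 had MM6 replicates at least 2-fold apart. FOSB, JUN, KLF6 and IFI27 were named after their values were seen.

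The lines differed widely. Among the 12450 tested genes, 1671 (13.4%) were called higher in NB4 and 1986 (16.0%) higher in MM6, where a call needed a Benjamini-Hochberg adjusted p below 0.05 in limma and a difference of at least 2-fold on the log2(RPKM + 1) scale. Another 5198 genes passed the adjusted p with a difference under 2-fold, so that 71.1% of the tested genes passed it at some size. The libraries of the lines did not overlap for 87.3% of the tested genes. Of the calls, 328 were at least 4-fold in favour of NB4 and 635 in favour of MM6, and at 16-fold the counts were 34 and 103. The median difference over all tested genes was 0.03. Counts in the gene lists below are to be read beside the 13.4% and 16.0% called over all tested genes. All differences are NB4 minus MM6, so that a negative value means a higher level in MM6. With limma's test against a difference of 1 rather than 0, 855 and 1181 genes were called.

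**Figure D1:**
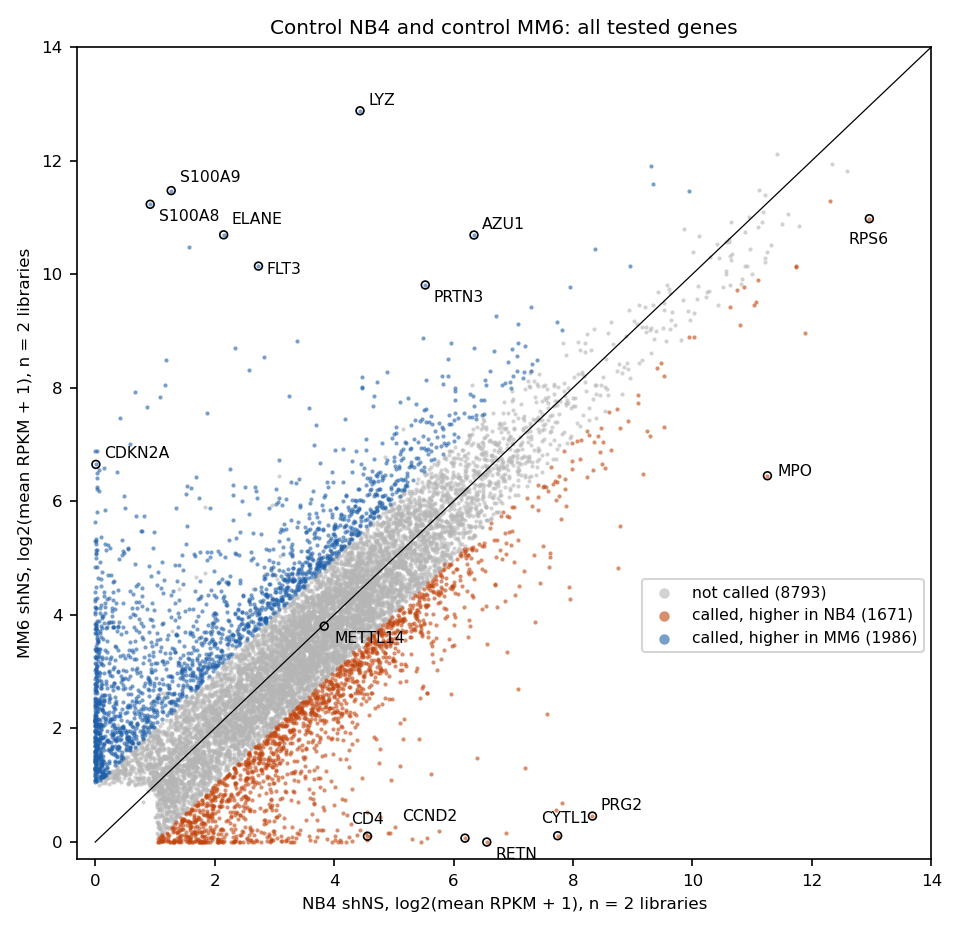
Each point is 1 of the 12450 tested genes, with its mean level in the 2 NB4 control libraries on the x axis and in the 2 MM6 control libraries on the y axis, both as log2(mean RPKM + 1). The 1671 genes called higher in NB4 lie below the line of equality and the 1986 called higher in MM6 above it; MPO lies far below it, and S100A8, S100A9, ELANE, LYZ and FLT3 far above.

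The genes with the largest differences in favour of NB4 were PRG2, CYTL1, MMP9, PTPRCAP, IL2RG, RETN, CCND2, TESC, GJA1, CD3D, UNCX and IGF2BP1. PRG2, the major basic protein of eosinophil granules, was at 326 and 314 RPKM in NB4 against 0.39 and 0.356 RPKM in MM6 (log2 difference 7.87, SE 0.08, limma adjusted p = 1.21e-05). CYTL1, a small secreted protein, was at 215 and 212 RPKM in NB4 against 0.0839 and 0.0767 RPKM in MM6 (log2 difference 7.63, limma adjusted p = 1.21e-05). MMP9, the gelatinase of neutrophil granules, was at 202 and 215 RPKM in NB4 against 0.503 and 0.444 RPKM in MM6 (log2 difference 7.15, limma adjusted p = 1.21e-05). All 3 were abundant in both NB4 libraries and near 0 in both MM6 libraries. PTPRCAP, a partner of the CD45 phosphatase, was at 216 and 235 RPKM in NB4 against 0.601 and 0.635 RPKM in MM6, and PTPRC, which encodes CD45 itself, was also higher in NB4, at 35.7 and 32.9 against 8.64 and 9.21 RPKM. IL2RG, the gamma chain shared by several interleukin receptors, was at 117 and 116 RPKM in NB4 against 0.0547 and 0.175 RPKM in MM6. CCND2, a D-type cyclin, was at 72.4 and 71.8 RPKM in NB4 against 0.0386 and 0.0588 RPKM in MM6. RETN, which encodes the secreted protein resistin, was at 89.1 and 97.2 RPKM in NB4 and had no read in either MM6 library, which makes it at least 461-fold higher in NB4 against a floor of 3 reads per library. UNCX, a homeobox gene, was at 39.5 and 46.4 RPKM in NB4, also without a read in MM6, and so at least 569-fold higher. TESC, a calcium-binding protein, was at 141 and 149.7 RPKM in NB4 against 1.08 and 1.84 RPKM in MM6. GJA1, a gap junction protein, was at 54.3 and 52.1 RPKM in NB4 against 0.185 and 0.0969 RPKM in MM6.

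In favour of MM6 the largest differences were those of S100A8, S100A9, ELANE, PPP1R27, LYZ, FLT3, ALOX5AP, IFI30, APP, PTGDS, APOE and VCAN. FLT3, the receptor tyrosine kinase of early myeloid and lymphoid progenitors, was at 1104 and 1154 RPKM in MM6 against 5.74 and 5.56 RPKM in NB4 (log2 difference -7.41, SE 0.09, limma adjusted p = 1.21e-05). PPP1R27, a regulatory subunit of protein phosphatase, was at 1324 and 1534 RPKM in MM6 against 1.66 and 2.3 RPKM in NB4 (log2 difference -8.91, limma adjusted p = 1.21e-05). ALOX5AP, which presents arachidonic acid to the 5-lipoxygenase, was at 332 and 381 RPKM in MM6 against 1.35 and 1.22 RPKM in NB4 (log2 difference -7.29, limma adjusted p = 1.21e-05). PTGDS, a prostaglandin D synthase, was at 138 and 97.3 RPKM in MM6 with no read in NB4, which is at least 824-fold higher against the same floor. APOE, the lipid carrier that macrophages secrete, was at 285 and 244 RPKM in MM6 against 1.21 and 1.31 RPKM in NB4. VCAN, a matrix proteoglycan of monocytes, was at 121 and 115 RPKM in MM6 against 0.0103 and 0.0391 RPKM in NB4. APP, the amyloid precursor protein, was at 184 and 167 RPKM in MM6 against 0.0106 and 0.657 RPKM in NB4. In all, 41 genes called higher in NB4 had no read in either MM6 control, and 85 called higher in MM6 had none in either NB4 control.

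The primary granule genes split between the lines. MPO, the peroxidase of the primary granule, was at 2399.6 and 2489.9 RPKM in NB4 against 69.6 and 103 RPKM in MM6, a 28.3-fold ratio of means (log2 difference 4.83, SE 0.20, limma adjusted p = 5.11e-05). The serine protease ELANE (neutrophil elastase) went the other way, at 1599 and 1709 RPKM in MM6 against 0.0462 and 6.83 RPKM in NB4 (log2 difference -9.17, SE 0.92, limma adjusted p = 0.000659). PRTN3 (proteinase 3) was at 889 and 903 RPKM in MM6 against 46.1 and 44.1 RPKM in NB4 (log2 difference -4.28, SE 0.09, limma adjusted p = 1.45e-05). AZU1 (azurocidin, an inactive protease homologue) was at 1703 and 1597 RPKM in MM6 against 79.7 and 80.6 RPKM in NB4 (log2 difference -4.35, limma adjusted p = 1.45e-05). Both NB4 libraries lay below both MM6 libraries for all 3 of these protease genes and above them for MPO. CTSG (cathepsin G) was at 107 and 239 RPKM in MM6 against 41.9 and 44.9 RPKM in NB4 (log2 difference -1.86, limma adjusted p = 0.00772); its MM6 replicates were more than 2-fold apart, and its adjusted p rose to 0.0575 without NB4 replicate 1 and 0.0509 without NB4 replicate 2. ELANE was unequal within NB4, and its difference was -7.72 without NB4 replicate 1 and -10.63 without NB4 replicate 2.

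The list held 18 promyelocyte and granule genes, not all of which encode granule proteins, and 16 passed the low-value filter. Of these, 2 were called higher in NB4 (MPO and HGF) and 11 higher in MM6, against 13.4% and 16.0% of all tested genes. The median difference was -2.00. HGF, hepatocyte growth factor and not a granule protein, was at 6.92 and 6.63 RPKM in NB4 against 0.562 and 0.388 RPKM in MM6. SRGN, the proteoglycan that packs granule proteins, was at 4320.0 and 3337 RPKM in MM6 against 636 and 628 RPKM in NB4. RNASE3, the eosinophil cationic protein, was at 63.9 and 60.4 RPKM in MM6 against 8.41 and 6.2 RPKM in NB4. The 3 members that passed the adjusted p below 2-fold were CLEC11A, PRSS57 and P2RY2, named after their values were seen. The 11 members called higher in MM6 thus went against the promyelocytic name of NB4, while MPO and HGF did not. Summed over the list, the level was 3738 and 3834 RPKM in NB4 and 9662 and 8931 RPKM in MM6. Of the genes of later neutrophils, 13 were listed and 5 tested. MMP9 and DEFA4, a defensin, were called higher in NB4. DEFA4 was low, at 3.11 and 1.57 RPKM in NB4 against 0.271 and 0.682 RPKM in MM6 (log2 difference 1.15, limma adjusted p = 0.0119), and lost its call without NB4 replicate 1 (0.81) and without MM6 replicate 1 (0.95), which left MMP9 alone. CHI3L1, a chitinase-like secreted protein, was called higher in MM6, at 164 and 211 RPKM in MM6 against 2.44 and 2.89 RPKM in NB4, as were CXCR2, a chemokine receptor, and QPCT, a glutaminyl cyclase, whose difference was -0.95 without MM6 replicate 1.

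The start regions of PRTN3 and AZU1 are shown because these neighbouring genes were high together in MM6; the RefSeq table (GRCh38.p14) held both, and each window is the 250 bases before the annotated start, on the gene's strand, 5′ to 3′. Capitals mark 4 short motifs searched on both strands: GAGGAA, the core bound by SPI1 and other ETS factors; TTNNGNAA, a form of the C/EBP site; TATAAA; and CCAAT. Matches may overlap.
PRTN3, chr19:840749-840998, plus strand: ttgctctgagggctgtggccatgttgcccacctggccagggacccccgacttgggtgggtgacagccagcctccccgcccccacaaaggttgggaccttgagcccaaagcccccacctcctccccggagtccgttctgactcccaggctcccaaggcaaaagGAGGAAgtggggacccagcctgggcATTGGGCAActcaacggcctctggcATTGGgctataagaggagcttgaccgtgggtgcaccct
AZU1, chr19:827587-827836, plus strand: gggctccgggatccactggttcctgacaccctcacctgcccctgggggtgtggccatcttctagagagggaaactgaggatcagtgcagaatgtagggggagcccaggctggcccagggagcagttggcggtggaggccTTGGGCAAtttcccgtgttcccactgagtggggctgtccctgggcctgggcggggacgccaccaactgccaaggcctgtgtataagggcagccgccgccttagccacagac
Both windows held the same C/EBP-type word, TTGGGCAA, at positions -62 to -55 in PRTN3 and -111 to -104 in AZU1, where -1 is the base before the start. PRTN3 also held GAGGAA at -88 to -83 and CCAAT on the other strand at -63 to -59 and at -38 to -34, the first overlapping the C/EBP-type word. Of all 27305 promoter windows of this length, 33.6% held TTNNGNAA, 23.4% GAGGAA, 33.0% CCAAT and 11.1% TATAAA, so that such matches are common and describe the letters only.

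Genes of eosinophils, basophils and mast cells also split. Besides PRG2, NB4 was higher for HDC, the enzyme that makes histamine, at 30.8 and 27.3 RPKM in NB4 against 0.191 and 0.0436 RPKM in MM6 (log2 difference 4.75, limma adjusted p = 1.83e-05), and for EPX, eosinophil peroxidase, at 1.73 and 2.18 RPKM in NB4 against 0.386 and 0.48 RPKM in MM6 (log2 difference 1.04, limma adjusted p = 0.000847). EPX was just past the 2-fold threshold, and its difference fell to 0.99 without MM6 replicate 1 and 0.93 without NB4 replicate 2. MM6 was higher for the mast cell tryptases TPSB2, at 259 and 195 RPKM in MM6 against 1.06 and 1.16 RPKM in NB4 (log2 difference -6.74, limma adjusted p = 1.7e-05), and TPSAB1, at 57.8 and 47.3 RPKM in MM6 against 0.394 and 0.814 RPKM in NB4 (log2 difference -5.07, limma adjusted p = 3.43e-05). The tryptase genes are near-identical copies, so the division of reads between them is uncertain. Of 7 listed members 5 were tested, 3 of them higher in NB4 and 2 in MM6.

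**Figure D2:**
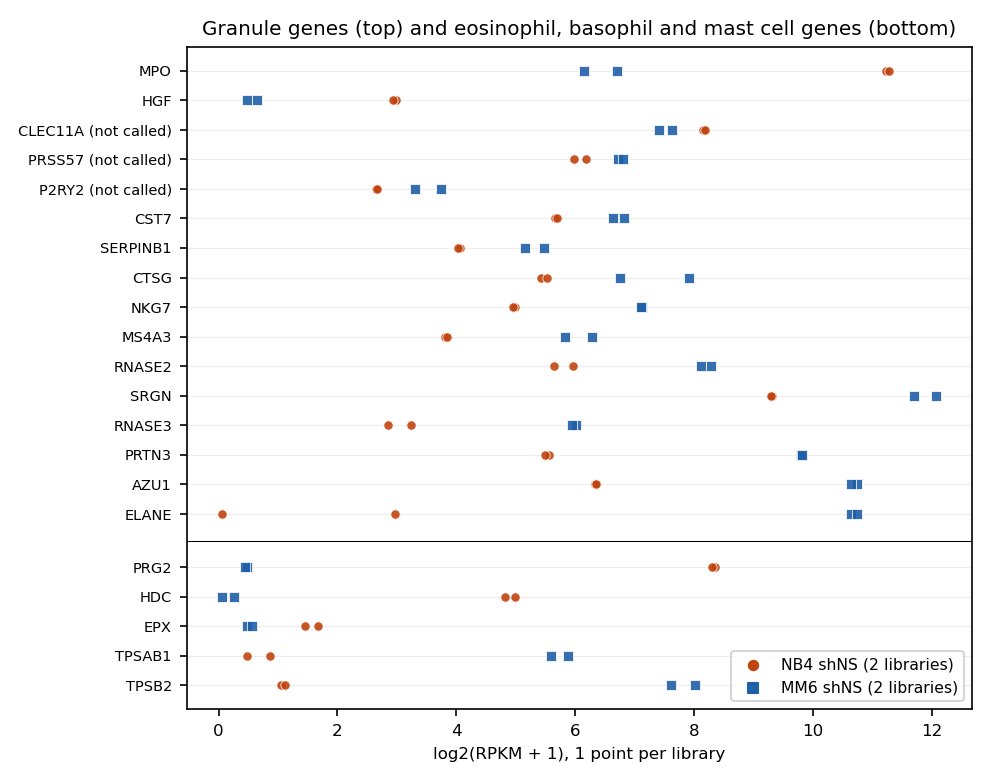
Levels of the 16 tested promyelocyte and granule genes (above the line) and the 5 tested eosinophil, basophil and mast cell genes (below it) in each control library, as log2(RPKM + 1), with NB4 as circles and MM6 as squares, ordered by their difference. MPO, HGF, PRG2, HDC and EPX are higher in NB4, while ELANE, AZU1, PRTN3 and the tryptases are higher in MM6; the 2 NB4 points of ELANE lie far apart.

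The monocyte and macrophage genes were mostly higher in MM6. Of 37 listed members 30 were tested, and 22 were called higher in MM6 and 4 higher in NB4, with a median difference of -2.21. LYZ, lysozyme, was the most abundant of them, at 9206 and 5836 RPKM in MM6 against 19.8 and 21.4 RPKM in NB4 (log2 difference -8.41, SE 0.23, limma adjusted p = 2.1e-05). S100A8, the smaller calprotectin subunit, was at 2916 and 1886 RPKM in MM6 against 0.327 and 1.46 RPKM in NB4 (log2 difference -10.34, SE 0.35, limma adjusted p = 3.54e-05). S100A9, the larger one, was at 3294 and 2382 RPKM in MM6 against 0.666 and 2.16 RPKM in NB4 (log2 difference -10.25, SE 0.34, limma adjusted p = 3.23e-05). S100A8 and S100A9 had the largest differences of the named genes in favour of MM6, and the lines did not overlap for any of the 3. CD14, the lipopolysaccharide co-receptor that defines classical monocytes, was lower in level, at 14.7 and 12.2 RPKM in MM6 against 0.111 and 0.105 RPKM in NB4 (log2 difference -3.70, SE 0.11, limma adjusted p = 2.61e-05). S100A12, a further calcium-binding protein of phagocytes, was at 62 and 35.5 RPKM in MM6 without a read in NB4, at least 196-fold higher. The sum over the list was 252 and 239 RPKM in NB4 and 16490.0 and 11140.0 RPKM in MM6.

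The 4 monocyte genes called higher in NB4 were CD4, FCN1, AIF1 and CSF1R. CD4, a co-receptor that monocytes share with T helper cells, was at 22.2 and 22.9 RPKM in NB4 against 0.0819 and 0.0655 RPKM in MM6 (log2 difference 4.46, SE 0.08, limma adjusted p = 1.41e-05). CSF1R, the receptor for the macrophage growth factor M-CSF, was at 3.96 and 4.34 RPKM in NB4 against 1.29 and 1.43 RPKM in MM6 (log2 difference 1.13, limma adjusted p = 0.000354). FCN1, the secreted lectin ficolin, was at 6.89 and 6.33 RPKM in NB4 and had no read in MM6, and AIF1, an actin-binding protein of macrophages, was at 10.6 and 10.2 RPKM in NB4 against 1.31 and 1.15 RPKM in MM6; these were named after their values were seen. The monocytic label of MM6 was thus met by the 22 members called higher there, CD14 and LYZ among them, and not by these 4. The complement gene C1QC had no read in any control library.

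**Figure D3:**
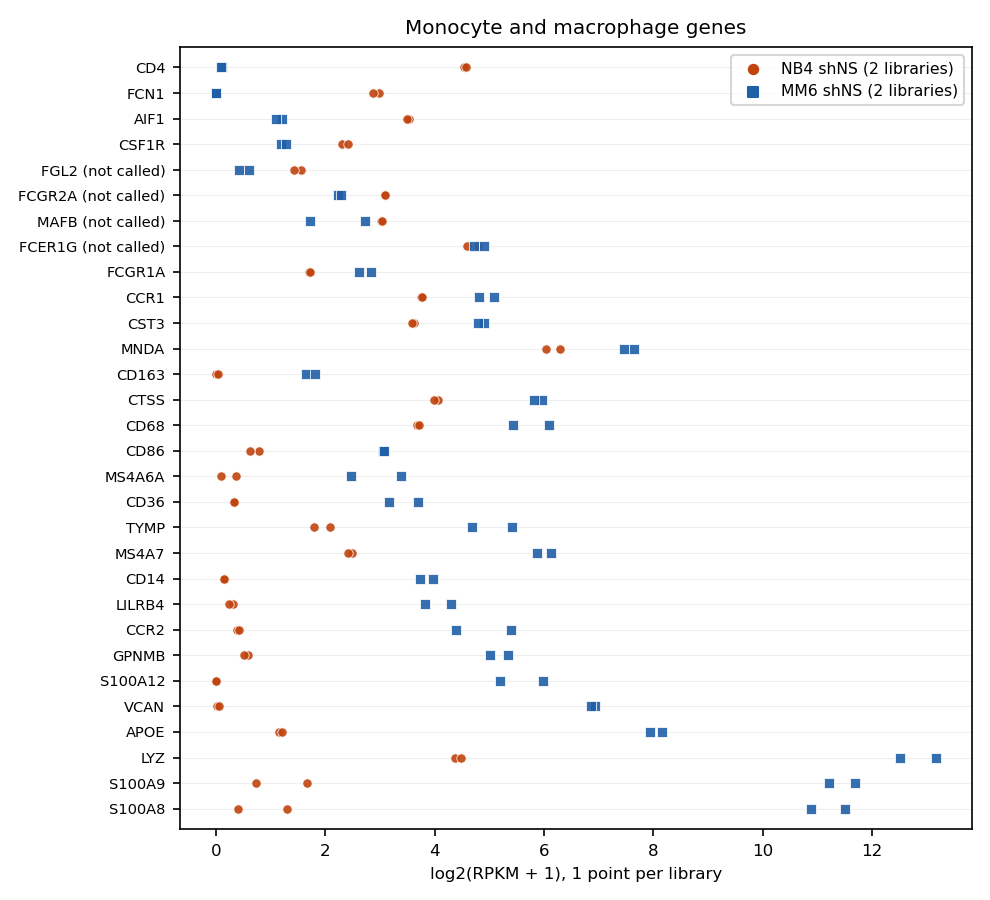
Levels of the 30 tested monocyte and macrophage genes in each control library, as log2(RPKM + 1), ordered by the difference, with NB4 as circles and MM6 as squares. The squares lie to the right for 22 genes down to S100A8 and LYZ, and to the left for CD4, FCN1, AIF1 and CSF1R.

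The S100 and annexin families, which bind calcium and, for annexins, membranes, followed the calprotectin genes. Of 18 tested members, 12 were called higher in MM6 and 1 (S100P) higher in NB4, with a median difference of -1.27. S100A6 was at 158 and 115 RPKM in MM6 against 22.3 and 22.3 RPKM in NB4. ANXA4 was at 123 and 131 RPKM in MM6 against 11.5 and 11.8 RPKM in NB4. ANXA5, the phosphatidylserine binder, was at 161 and 174 RPKM in MM6 against 44.2 and 46.4 RPKM in NB4. The start regions of S100A8 and S100A9 are shown because these genes, divided by S100A12 alone in RefSeq order, had the largest differences named in favour of MM6; the windows and capitals are as for PRTN3.
S100A8, chr1:153391189-153391438, minus strand: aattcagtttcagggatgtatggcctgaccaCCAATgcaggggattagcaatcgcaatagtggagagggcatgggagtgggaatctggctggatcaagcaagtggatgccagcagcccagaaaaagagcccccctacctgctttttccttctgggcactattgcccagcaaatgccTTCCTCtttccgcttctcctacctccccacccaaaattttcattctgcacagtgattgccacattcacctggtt
S100A9, chr1:153357604-153357853, plus strand: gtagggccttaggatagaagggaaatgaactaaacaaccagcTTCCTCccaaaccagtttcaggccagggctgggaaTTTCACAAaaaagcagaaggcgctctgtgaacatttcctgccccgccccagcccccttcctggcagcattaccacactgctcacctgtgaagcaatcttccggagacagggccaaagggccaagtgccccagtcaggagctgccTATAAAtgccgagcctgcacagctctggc
The SPI1-type core occurred on the other strand in both, at -74 to -69 in S100A8 and -208 to -203 in S100A9. S100A9 held a C/EBP-type word on the other strand at -173 to -166 and TATAAA at -29 to -24. The S100A8 window held no TTNNGNAA, which says only that these letters are not in it.

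Transcription factors of myeloid cells were more often higher in MM6. Of 26 tested, 10 were called higher in MM6 and 4 higher in NB4, against 16.0% and 13.4% of all tested genes, with a median difference of -0.79. IRF8, which directs monocyte fate, was at 203 and 258 RPKM in MM6 against 9.18 and 7.81 RPKM in NB4 (log2 difference -4.60, SE 0.15, limma adjusted p = 3.18e-05). CEBPA, the C/EBP factor of early granulocyte and monocyte progenitors, was at 149.7 and 165 RPKM in MM6 against 31.4 and 32.6 RPKM in NB4 (log2 difference -2.26, SE 0.09, limma adjusted p = 5.53e-05). SPI1 (PU.1) was at 103 and 107 RPKM in MM6 against 45.9 and 50.6 RPKM in NB4 (log2 difference -1.11, SE 0.10, limma adjusted p = 0.0004), just past the 2-fold threshold, and with quantile normalization its difference was -0.97. BCL6, a repressor, was at 18.4 and 15.3 RPKM in MM6 against 0.731 and 0.698 RPKM in NB4. CEBPE, the C/EBP factor of late granulocyte maturation, was the member with the largest difference in favour of NB4, at 16.2 and 19.1 RPKM in NB4 against 0.271 and 0.496 RPKM in MM6 (log2 difference 3.75, SE 0.13, limma adjusted p = 3.69e-05). GFI1, a repressor of monocyte genes in granulocyte precursors, was at 46.6 and 46.6 RPKM in NB4 against 23.6 and 28.1 RPKM in MM6 and stayed under 2-fold (log2 difference 0.83, limma adjusted p = 0.00192).

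KLF4 and EGR1, a pair of immediate early genes that also mark monocytes, need the MM6 replicates given side by side. KLF4 was at 41 and 11.3 RPKM in MM6 against 3.31 and 2.66 RPKM in NB4 (log2 difference -2.52, limma adjusted p = 0.0116). EGR1 was at 419.8 and 97.8 RPKM in MM6 against 20.3 and 21.9 RPKM in NB4 (log2 difference -3.21, limma adjusted p = 0.00861). Each kept its call without MM6 replicate 1, with a difference of -1.64 for KLF4 (limma adjusted p = 0.00184) and -2.16 for EGR1 (limma adjusted p = 0.000577). Without MM6 replicate 2 the differences were -3.40 and -4.25. Without NB4 replicate 1 or 2 the differences stayed at -2.64 and -2.40 for KLF4 and at -3.16 and -3.26 for EGR1, but the call was lost, with a limma adjusted p of 0.0616 and 0.0754 for KLF4 and of 0.0592 and 0.0547 for EGR1. MM6 replicate 1 was the higher of the pair for both, as it was for 6 of the 26 factors at 2-fold or more.

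Stem and progenitor genes and the HOX genes gave a mixed picture. GATA2, a factor of stem cells and of the mast cell lineage, was at 20.8 and 21.6 RPKM in NB4 against 1.19 and 1.18 RPKM in MM6 (log2 difference 3.34, SE 0.08, limma adjusted p = 1.95e-05). MYC was at 256 and 248 RPKM in NB4 against 73 and 115 RPKM in MM6 (log2 difference 1.45, limma adjusted p = 0.00281). WT1, a zinc finger gene used to track leukaemia, was at 21.5 and 18.8 RPKM in NB4 against 7.22 and 7.22 RPKM in MM6. NRIP1, a nuclear receptor co-repressor, was at 7.7 and 7.42 RPKM in MM6 against 0.0113 and 0.0367 RPKM in NB4. MSI2, an RNA-binding protein, was at 17.4 and 14.9 RPKM in MM6 against 4.02 and 4.45 RPKM in NB4. MYB was at 102 and 134 RPKM in MM6 against 60.9 and 58.4 RPKM in NB4 and not called (log2 difference -0.96, limma adjusted p = 0.00301); without MM6 replicate 1 its difference was -1.15 and it passed the threshold, and with median-of-ratios scaling it was -1.02. KIT was barely detected, at 0.0797 and 0.155 RPKM in NB4 and with no read in MM6, and was not tested. Of 12 tested members of this list, 3 were called higher in NB4 and 5 higher in MM6, against 13.4% and 16.0% of all tested genes.

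Along the HOXA cluster the called genes differed in direction. HOXA9 was at 4.69 and 2.93 RPKM in MM6 against 0.145 and 0.0675 RPKM in NB4 (log2 difference -2.10, SE 0.19, limma adjusted p = 0.000475). HOXA5 was at 5.93 and 3.64 RPKM in MM6 against 0.49 and 0.733 RPKM in NB4 (log2 difference -1.82, limma adjusted p = 0.0011). HOXA6 and HOXA7, which lie between them, were also called higher in MM6. HOXA10 was at 11 and 10.4 RPKM in NB4 against 9.98 and 9.67 RPKM in MM6 (log2 difference 0.11, limma adjusted p = 0.284), and HOXA11 was at 4.38 and 4.87 RPKM in NB4 against 3.5 and 4.01 RPKM in MM6, neither passing the adjusted p. HOXA13, at the far end of the cluster, was called higher in NB4, at 5.83 and 6.1 RPKM in NB4 against 0.985 and 1.83 RPKM in MM6 (log2 difference 1.55, limma adjusted p = 0.00113), as was the neighbouring noncoding RNA HOTTIP, at 1.89 and 1.82 RPKM in NB4 against 0.27 and 0.321 RPKM in MM6. HOXA7, HOXA11 and HOTTIP were named after their values were seen, and where sense and antisense genes overlap their reads cannot be told apart, since the counting is not known to use strand. The partners of HOXA9 were higher in MM6: MEIS1 was at 8.6 and 8.85 RPKM in MM6 against 0.295 and 0.371 RPKM in NB4 (log2 difference -2.87, SE 0.09, limma adjusted p = 2.61e-05). PBX3 was at 59.7 and 71.4 RPKM in MM6 against 2.34 and 2.33 RPKM in NB4 (log2 difference -4.31, SE 0.12, limma adjusted p = 2.08e-05). Of 15 tested HOX, MEIS and PBX genes, 6 were called higher in MM6 and 2 in NB4, against 16.0% and 13.4% of all tested genes. The levels of HOXA9 in MM6 were low beside those of PBX3.

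Of the genes of the known fusions, KMT2A alone was called. RARA was at 9.56 and 9.74 RPKM in NB4 against 8.64 and 8.13 RPKM in MM6 (log2 difference 0.18, SE 0.09, limma adjusted p = 0.113). PML was at 11.5 and 12.4 RPKM in NB4 against 5.98 and 8.23 RPKM in MM6 (log2 difference 0.69, SE 0.15, limma adjusted p = 0.0117). KMT2A was at 18.7 and 19.1 RPKM in NB4 against 8.14 and 7.26 RPKM in MM6 (log2 difference 1.20, limma adjusted p = 0.000317). MLLT3 was at 5.94 and 5.71 RPKM in NB4 against 2.98 and 2.3 RPKM in MM6 (log2 difference 0.91, limma adjusted p = 0.00166), under 2-fold. MLLT3 passed the threshold with a pseudocount of 0.1 (1.12), with voom (1.16) and without MM6 replicate 1 (1.05). PSIP1, a chromatin tether of the KMT2A complex, was at 122 and 111 RPKM in NB4 against 35.5 and 29.9 RPKM in MM6. MLLT10 was at 9.88 and 9.51 RPKM in NB4 against 4.36 and 4.16 RPKM in MM6 and was just under 2-fold without MM6 replicate 2. CDK6, a cell cycle kinase, was at 43.7 and 34.8 RPKM in MM6 against 8.54 and 8.31 RPKM in NB4. MEF2C was at 1.9 and 2.72 RPKM in MM6 against 0.0401 and 0.0326 RPKM in NB4. AFF1 was at 12.8 and 13.9 RPKM in MM6 against 5.95 and 5.77 RPKM in NB4. Over 18 tested genes linked to KMT2A fusions, 3 were called higher in NB4 and 4 in MM6, near the 13.4% and 16.0% of all tested genes, with a median of -0.37. Among 16 tested genes of retinoid handling and response, 4 were called higher in NB4 and 7 in MM6, with a median of -0.03. The shares of all tested genes were 13.4% and 16.0%. The 6 genes given next had the largest differences and were all higher in MM6, while the largest in favour of NB4 was 1.49. DHRS3, a retinal reductase, was at 15.1 and 11.4 RPKM in MM6 against 1.17 and 1.17 RPKM in NB4. RARG, a second retinoic acid receptor, was at 3.42 and 3.59 RPKM in MM6 against 0.137 and 0.121 RPKM in NB4. ASB2 was at 7.3 and 7.05 RPKM in MM6 against 0.435 and 0.333 RPKM in NB4. TGM2, a transglutaminase, was at 4.02 and 2.43 RPKM in MM6 against 0 and 0.0478 RPKM in NB4. RDH10, a retinol dehydrogenase, was at 7.95 and 7.23 RPKM in MM6 against 1.83 and 1.59 RPKM in NB4. CRABP1, a retinoic acid binding protein, was at 1.63 and 3.13 RPKM in MM6 against 0.111 and 0 RPKM in NB4.

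Class II antigen presentation genes were low in NB4. CIITA, the master activator of these genes, was at 4.69 and 4.54 RPKM in MM6 against 0.112 and 0.112 RPKM in NB4 (log2 difference -2.34, SE 0.08, limma adjusted p = 3.93e-05). HLA-DRA was at 33.1 and 32.4 RPKM in MM6 against 0.00953 and 0.0116 RPKM in NB4 (log2 difference -5.06, SE 0.08, limma adjusted p = 1.21e-05), that is 2 and 3 reads in NB4 and 7082 and 7583 reads in MM6. HLA-DRB1 and HLA-DRB5 had no read in NB4 and were at 9.31 and 9.8 and at 13.6 and 11.2 RPKM in MM6, at least 618-fold and 125-fold higher. These paralogs can share reads. Their gene lengths were set at 7509 and 1168 bases, so that HLA-DRB1 had more reads in MM6 (1666 and 1917) than HLA-DRB5 (379 and 340). HLA-DRA, HLA-B and HLA-F also had long lengths, of 8969, 9433 and 11510 bases. RPKM of HLA genes is therefore lowered and is not to be compared between genes. CD74, the invariant chain, was at 345 and 286 RPKM in MM6 against 5.06 and 4.91 RPKM in NB4 (log2 difference -5.72, limma adjusted p = 1.47e-05). IFI30, the lysosomal thiol reductase, was at 272 and 213 RPKM in MM6 against 0.831 and 0.338 RPKM in NB4 (log2 difference -7.27, limma adjusted p = 2.12e-05). Of 17 listed class II genes, 11 were tested, 7 were called higher in MM6 and 1 in NB4 (RFXAP, a subunit of the factor that CIITA docks on, named after its value was seen). Class I genes were nearer to the background: of 19 tested, 4 were called higher in MM6 and 1 in NB4. HLA-B was at 159 and 198 RPKM in MM6 against 74.4 and 76.1 RPKM in NB4. NLRC5, the activator of class I genes, was at 27 and 28.6 RPKM in NB4 against 6.3 and 8.09 RPKM in MM6. HLA-F was at 1.54 and 2.51 RPKM in MM6 against 0.0334 and 0.0181 RPKM in NB4, and CANX, a folding chaperone, was at 289.8 and 340.0 RPKM in MM6 against 157 and 156 RPKM in NB4. CANX was at the 2-fold threshold, with a difference of -0.89 without MM6 replicate 2. Without MM6 replicate 1, 7 class I genes were called higher in MM6.

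The start region of CD74 is shown as the class II gene with the highest RPKM in MM6.
CD74, chr5:150412911-150413160, minus strand: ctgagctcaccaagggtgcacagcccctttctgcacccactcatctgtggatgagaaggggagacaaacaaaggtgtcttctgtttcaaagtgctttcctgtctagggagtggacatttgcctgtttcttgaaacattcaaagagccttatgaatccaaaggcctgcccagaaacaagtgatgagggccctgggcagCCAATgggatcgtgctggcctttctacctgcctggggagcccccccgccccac
It held CCAAT at -53 to -49, the word of the Y box of class II promoters, and none of the other 3 motifs.

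Surface antigens used to type leukaemia were divided evenly, 7 higher in NB4 and 7 higher in MM6 of 21 tested. The shares of all tested genes were 13.4% and 16.0%. CD33 was at 28.4 and 28.1 RPKM in NB4 against 21.9 and 21 RPKM in MM6, under 2-fold (log2 difference 0.38, limma adjusted p = 0.0111), and ITGAM (CD11b) at 5.49 and 4.98 RPKM in NB4 against 3.05 and 2.49 RPKM in MM6 (log2 difference 0.73, limma adjusted p = 0.00308). ANPEP (CD13), a myeloid aminopeptidase, was at 135 and 132 RPKM in NB4 against 6.28 and 4.6 RPKM in MM6 (log2 difference 4.40, SE 0.14, limma adjusted p = 3.25e-05). CD36, a scavenger receptor, was at 12 and 7.94 RPKM in MM6 against 0.252 and 0.26 RPKM in NB4. Among integrins, ITGB2, the common beta chain of leukocyte integrins, was at 481 and 403 RPKM in MM6 against 59 and 63.3 RPKM in NB4 (log2 difference -2.83, limma adjusted p = 5.57e-05), and its partner ITGAL at 91 and 80.1 RPKM in MM6 against 1.91 and 2.56 RPKM in NB4 (log2 difference -4.75, limma adjusted p = 2.34e-05). ITGB5 was at 7.6 and 4.63 RPKM in MM6 against 0.078 and 0.0555 RPKM in NB4. PECAM1, an adhesion molecule, was at 15.2 and 19.6 RPKM in MM6 against 1.65 and 1.39 RPKM in NB4. FERMT3, the kindlin that activates integrins, was at 56.6 and 59.8 RPKM in NB4 against 13.4 and 16.2 RPKM in MM6, and the ligand ICAM3 at 44.3 and 46.4 RPKM in NB4 against 14.1 and 16.1 RPKM in MM6. Of 18 tested integrins and ligands, 3 were called higher in NB4 and 6 in MM6, against 13.4% and 16.0% of all tested genes.

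Among growth factor receptors, 5 of 20 tested were called higher in NB4 and 8 in MM6, against 13.4% and 16.0% of all tested genes. Besides IL2RG, NB4 was higher for IGF1R, at 11.5 and 11.8 RPKM in NB4 against 1.71 and 1.13 RPKM in MM6 (log2 difference 2.40, limma adjusted p = 0.000126), and for CSF3R, the G-CSF receptor of granulocytes, at 15.2 and 14.4 RPKM in NB4 against 5.59 and 5.49 RPKM in MM6 (log2 difference 1.27, limma adjusted p = 0.000196). Besides FLT3, MM6 was higher for IL7R, at 3.76 and 9.18 RPKM in MM6 against 0 and 0.00754 RPKM in NB4 (log2 difference -2.79, limma adjusted p = 0.0015), for IFNGR1, the interferon gamma receptor, at 105 and 105 RPKM in MM6 against 29.6 and 27.3 RPKM in NB4, and for TGFBR1 at 56.9 and 57.3 RPKM in MM6 against 20.9 and 19.8 RPKM in NB4.

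Sensors of bacterial products and chemoattractant receptors were called higher in MM6 more often than in NB4. Of 18 tested genes of Toll-like receptors and their partners, such as CD14, LY96 and CD180, 9 were called higher in MM6 and 1 in NB4, with a median of -0.92. TLR2, the receptor of bacterial lipopeptides, was at 46.1 and 43.6 RPKM in MM6 against 8.35 and 8.04 RPKM in NB4 (log2 difference -2.32, limma adjusted p = 4.38e-05). LY96 (MD-2), the partner of TLR4, was at 13.9 and 15.1 RPKM in MM6 against 0.556 and 0.451 RPKM in NB4 (log2 difference -3.37, limma adjusted p = 2.26e-05). CD180 was at 10.6 and 13.3 RPKM in MM6 against 0.393 and 0.473 RPKM in NB4. The adaptor TICAM1 was at 6.34 and 7.56 RPKM in MM6 against 0.769 and 1.06 RPKM in NB4. TLR6 was higher in NB4, at 6.7 and 6.57 RPKM in NB4 against 0.841 and 0.978 RPKM in MM6. Of 11 tested chemoattractant receptors, 5 were called higher in MM6 and none higher in NB4 by limma, where 4 were higher at an unadjusted p below 0.05 but under 2-fold; voom called 0. GPR183, a receptor for oxysterols, was at 57.3 and 30.1 RPKM in MM6 against 0.766 and 0.641 RPKM in NB4. CCR2, the receptor that draws monocytes from marrow, was at 20.1 and 41 RPKM in MM6 against 0.308 and 0.334 RPKM in NB4. CXCR2 was at 2.85 and 3.18 RPKM in MM6 against 0.398 and 0.3 RPKM in NB4. CXCR4, the receptor that holds cells in marrow, was at 38.9 and 47.9 RPKM in MM6 against 17.5 and 17.7 RPKM in NB4. CCR1 was at 32.9 and 27 RPKM in MM6 against 12.5 and 12.6 RPKM in NB4. In the phagocyte oxidase, NCF1, a cytosolic subunit with near-identical pseudogenes, was at 37.4 and 33.1 RPKM in MM6 against 1.2 and 0.69 RPKM in NB4 (log2 difference -4.23, limma adjusted p = 4.16e-05). CYBA, the smaller membrane subunit, was at 278 and 338 RPKM in MM6 against 134 and 155 RPKM in NB4. CYBB, the larger one, was at 27.2 and 25.4 RPKM in NB4 against 9.75 and 15 RPKM in MM6. Both lay close to 2-fold, and CYBB was at 0.77 without MM6 replicate 1 and lost its call without NB4 replicate 1 (limma adjusted p = 0.0566). CYBA was at -0.94 without MM6 replicate 2 and -0.98 without NB4 replicate 1. Of the 8 subunits and partners tested, 2 were called higher in MM6 and 1 in NB4, against 16.0% and 13.4% of all tested genes.

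Interferon response genes went the other way. Of 40 tested, 21 were called higher in NB4 and 5 higher in MM6, with a median difference of 1.06. DDX58 (RIG-I), a sensor of viral RNA, was at 95.6 and 90.5 RPKM in NB4 against 8.33 and 12.2 RPKM in MM6 (log2 difference 3.09, SE 0.18, limma adjusted p = 0.000127). OAS1 and OAS3, synthases of the messenger that activates RNase L, were at 106 and 103 RPKM in NB4 against 9.26 and 23.9 RPKM in MM6 and at 113 and 116 RPKM in NB4 against 13.6 and 22.2 RPKM in MM6. Of the genes higher in MM6, MX1, a GTPase against viruses, was at 190.2 and 392 RPKM in MM6 against 20.1 and 22.3 RPKM in NB4 (log2 difference -3.63, limma adjusted p = 0.000529). IFITM3, a membrane protein that blocks viral entry, was at 58.9 and 95.5 RPKM in MM6 against 4.14 and 3.71 RPKM in NB4 (log2 difference -3.95, limma adjusted p = 0.000139). LGALS3BP was at 69.3 and 169 RPKM in MM6 against 14.3 and 15.9 RPKM in NB4 (log2 difference -2.76, limma adjusted p = 0.00263). Without MM6 replicates 1 and 2 in turn, the difference of LGALS3BP was -3.40 and -2.13 and that of OAS1 2.08 and 3.36. The other two called higher in MM6, IFI44 and IFI44L, were named after their values were seen. For 9 of the 40 the MM6 replicates were at least 2-fold apart, replicate 2 being the higher. The count in favour of NB4 was 16 without MM6 replicate 1, 23 without MM6 replicate 2 and 17 without either NB4 library. The count in favour of MM6 was 6, 5 and 3 in the same order. Summed levels were 3987 and 3926 RPKM in NB4 and 1780.0 and 3133 RPKM in MM6.

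Glycolysis and hypoxia genes were also called mostly higher in NB4. Of 27 tested, 13 were called higher in NB4 and 3 in MM6, with a median of 0.91. BNIP3, a mitophagy receptor induced by hypoxia, was at 164 and 163 RPKM in NB4 against 12.7 and 14.6 RPKM in MM6 (log2 difference 3.49, SE 0.10, limma adjusted p = 2.38e-05). PDK1, the kinase that closes pyruvate entry into mitochondria, was at 15.8 and 16.5 RPKM in NB4 against 1.94 and 1.56 RPKM in MM6 (log2 difference 2.65, limma adjusted p = 4.83e-05). The glycolytic enzymes PGK1, ALDOC and ENO2 were at 734 and 732 RPKM in NB4 against 147 and 169 RPKM in MM6, at 104 and 102 RPKM in NB4 against 23.5 and 21.1 RPKM in MM6 and at 23.4 and 22.5 RPKM in NB4 against 3.31 and 4.17 RPKM in MM6. PFKM, the muscle form of phosphofructokinase, was the exception with the largest difference, at 29.9 and 27.7 RPKM in MM6 against 5.39 and 5.63 RPKM in NB4. Of 30 tested oxidative phosphorylation genes, 2 were called higher in MM6 and none higher in NB4 by limma, where 6 were higher at an unadjusted p below 0.05; voom called 0. ATP5G1, a subunit of ATP synthase, was at 149 and 177 RPKM in MM6 against 53.9 and 44.1 RPKM in NB4. UQCRFS1, the iron-sulfur subunit of complex III, was at 136 and 146 RPKM in MM6 against 55 and 55.7 RPKM in NB4.

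Lysosomal genes were higher in MM6 in 17 of 29 tested members and higher in NB4 in 1, with a median of -1.77. CTSZ (cathepsin Z) was at 272 and 273 RPKM in MM6 against 26 and 24.8 RPKM in NB4 (log2 difference -3.37, SE 0.09, limma adjusted p = 1.95e-05). CTSB (cathepsin B) was at 215 and 191 RPKM in MM6 against 24.7 and 23.6 RPKM in NB4. CTSL (cathepsin L) was at 70 and 52.4 RPKM in MM6 against 6.63 and 7.62 RPKM in NB4. ASAH1, the acid ceramidase, was at 112 and 89.8 RPKM in MM6 against 13.2 and 11.9 RPKM in NB4. The exception was CTSH (cathepsin H), at 125 and 134 RPKM in NB4 against 16.2 and 22.7 RPKM in MM6 (log2 difference 2.69, limma adjusted p = 0.00017). Cholesterol and lipid genes stayed near the background, 4 of 27 tested being called higher in NB4 and 2 in MM6. HMGCS1, MVK and MVD of the mevalonate pathway were at 106 and 101 RPKM in NB4 against 23.6 and 39.2 RPKM in MM6, at 19.6 and 20.1 RPKM in NB4 against 3.96 and 6.96 RPKM in MM6 and at 33.5 and 36.9 RPKM in NB4 against 10.5 and 18.3 RPKM in MM6. The exporter ABCA1 was at 9.78 and 9.42 RPKM in NB4 against 4.5 and 3.26 RPKM in MM6. FASN, the fatty acid synthase, was at 118 and 141 RPKM in MM6 against 55.7 and 62.4 RPKM in NB4. TM7SF2, a sterol reductase, was at 22.1 and 29.6 RPKM in MM6 against 9.15 and 9.84 RPKM in NB4. Without MM6 replicate 2 the difference of ABCA1 was 0.95 and that of FASN just under 2-fold; MVD was at 0.90 without MM6 replicate 1 and lost its call without NB4 replicate 2 (limma adjusted p = 0.0611).

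**Figure D4:**
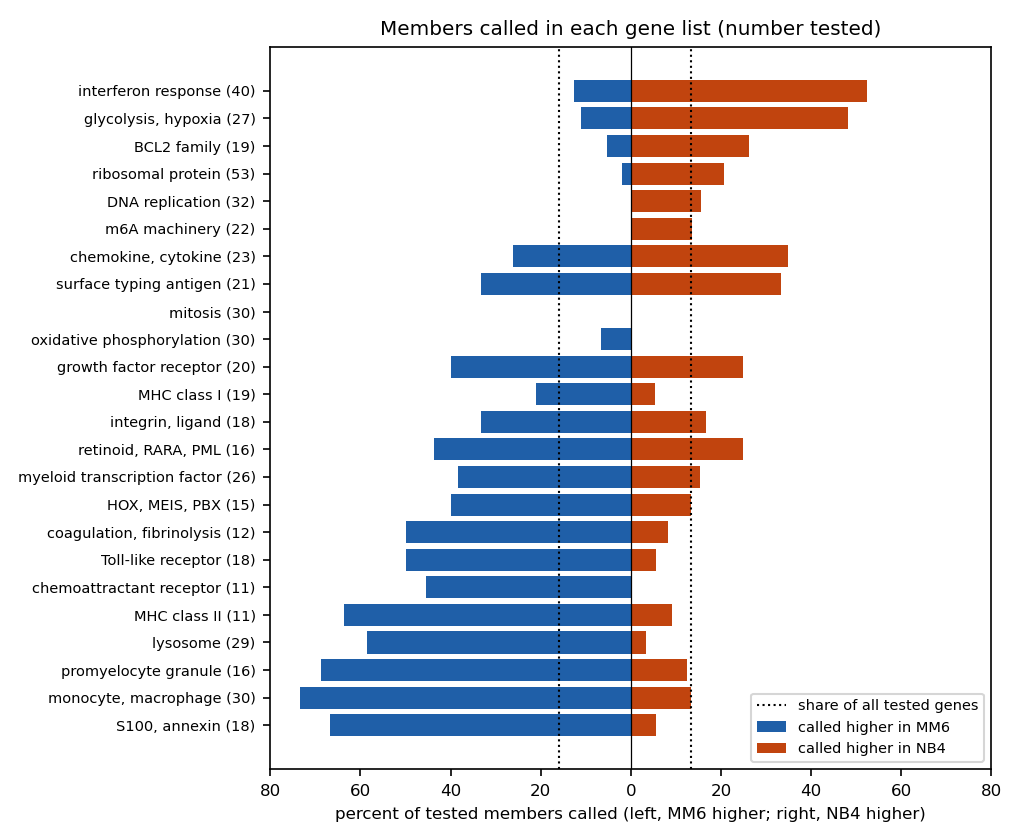
For 24 of the gene lists, bars give the percent of tested members called higher in MM6 (to the left) and higher in NB4 (to the right), with the number tested in parentheses; the dotted lines mark the share of all tested genes, 16.0% and 13.4%. Interferon response and glycolysis genes stand out to the right, monocyte, granule, S100 and lysosome genes to the left, and no mitosis gene is called.

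Ribosomal protein genes were called higher in NB4 in 11 of 53 cases and higher in MM6 in 1, with a median of 0.54. RPL18 was at 3751 and 3829.5 RPKM in NB4 against 490.2 and 500.4 RPKM in MM6 (log2 difference 2.93, SE 0.08, limma adjusted p = 2.34e-05). RPS6 was at 7696 and 8266 RPKM in NB4 against 2139.9 and 1889.9 RPKM in MM6 (log2 difference 1.99, limma adjusted p = 9.86e-05). RPL13, RPS4X and RPL6 were also called higher in NB4. RPS16 was the exception, at 3140.1 and 2524 RPKM in MM6 against 964 and 1006 RPKM in NB4 (log2 difference -1.51, limma adjusted p = 0.000406). Ribosomal protein genes have many pseudogenes that can share reads, so single values are uncertain. Of 30 mitosis genes none was called in either direction by limma, although 18 passed the adjusted p below 2-fold. At an unadjusted p below 0.05, 19 were higher in NB4 and 1 in MM6. Voom called 1 and 0, and no alternative called more than 2, the number with quantile normalization. TOP2A, which untangles chromosomes, was at 102 and 97.5 RPKM in NB4 against 99.7 and 104 RPKM in MM6, with overlapping libraries, and BUB3, a checkpoint protein, at 89.9 and 82.8 RPKM in NB4 against 72.5 and 80.7 RPKM in MM6. MAD2L1, a further checkpoint protein, was at 91.6 and 83.2 RPKM in NB4 against 51.2 and 60.8 RPKM in MM6. Of 32 DNA replication genes, 5 were called higher in NB4, a share near the 13.4% of all tested genes, and none in MM6 by limma, where 3 were higher in MM6 at an unadjusted p below 0.05; voom called 0. CDT1, which licenses origins, was at 85.4 and 91.1 RPKM in NB4 against 16.7 and 15.6 RPKM in MM6 (log2 difference 2.38, limma adjusted p = 4.5e-05). GINS2 was at 64.4 and 63.6 RPKM in NB4 against 13.4 and 15.7 RPKM in MM6. POLE was at 41.6 and 44.6 RPKM in NB4 against 11.9 and 13.1 RPKM in MM6. MCM7 was at 204 and 212 RPKM in NB4 against 83.1 and 78.3 RPKM in MM6. POLD2 was at 69.4 and 75.4 RPKM in NB4 against 30.3 and 36.6 RPKM in MM6, and its difference of 1.09 fell to 0.96 without MM6 replicate 1.

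Cell cycle inhibitors included genes with almost no reads in NB4. CDKN2A, which encodes the INK4A and ARF tumour suppressors, had 0 and 1 reads in NB4 and 4875 and 6216 reads in MM6, that is 0 and 0.0156 RPKM in NB4 against 91.8 and 107 RPKM in MM6. The ratio of its reads in MM6 to those in NB4, scaled to depth, was 11611 with a 95% exact interval of 2084 to 458670 for counting error only. CDKN2C was at 45.1 and 46.3 RPKM in MM6 against 9.15 and 9.63 RPKM in NB4. MTAP, the methylthioadenosine phosphorylase gene beside CDKN2A, was at 16.8 and 16 RPKM in MM6 against 0.191 and 0.233 RPKM in NB4 (log2 difference -3.84, limma adjusted p = 1.67e-05). RB1, the retinoblastoma protein that these inhibitors act through, was low in MM6 instead, at 25.1 and 23.8 RPKM in NB4 against 2.84 and 2.36 RPKM in MM6 (log2 difference 2.83, SE 0.10, limma adjusted p = 4.21e-05). Of 27 tested CDK inhibitor and p53 response genes, 4 were called higher in NB4 and 6 in MM6, near the 13.4% and 16.0% of all tested genes. BBC3, a killer of the BCL2 family, was at 18.8 and 19.9 RPKM in NB4 against 3.34 and 2.77 RPKM in MM6. FAS, a death receptor, was at 7.01 and 6.17 RPKM in NB4 against 1.5 and 1.61 RPKM in MM6. In the BCL2 family 5 of 19 tested were called higher in NB4 and 1 in MM6. BNIP3L, a relative of BNIP3, was at 43 and 41.6 RPKM in NB4 against 12.4 and 11.6 RPKM in MM6. BCL2L10 was at 3.42 and 3.24 RPKM in NB4 against 0.0227 and 0 RPKM in MM6. BCL2A1 was at 7.56 and 8.5 RPKM in NB4 against 4.32 and 2.08 RPKM in MM6; it lost its call without NB4 replicate 1 or 2 (limma adjusted p = 0.0643 and 0.0849), and without MM6 replicate 2 its difference fell from 1.16 to 0.76. MCL1, a survival protein with a short-lived mRNA, was at 445 and 119 RPKM in MM6 against 45.3 and 46.2 RPKM in NB4 (log2 difference -2.31, limma adjusted p = 0.0194). Its difference was -1.36 without MM6 replicate 1 and -3.25 without MM6 replicate 2, with the call kept. Without NB4 replicate 1 or 2 it stayed at -2.29 and -2.32, but the call was lost (limma adjusted p = 0.0962 and 0.0936).

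METTL14, the knockdown target and the partner of METTL3 in writing m6A, was at 14.1 and 12.5 RPKM in NB4 against 12.5 and 13.4 RPKM in MM6; the libraries overlapped and no difference was detected (log2 difference 0.03, SE 0.10, limma adjusted p = 0.791). Of 22 genes that write, erase or read m6A, 3 were called higher in NB4, a share near the 13.4% of all tested genes. None was called higher in MM6 by limma, against 16.0% of all tested genes, where 4 were higher in MM6 at an unadjusted p below 0.05. Voom called 0. IGF2BP1, a reader that stabilises its targets and is normally fetal, was at 38 and 39.2 RPKM in NB4 against 0.0144 and 0.0525 RPKM in MM6 (log2 difference 5.26, SE 0.09, limma adjusted p = 1.21e-05). IGF2BP3 was at 27 and 25 RPKM in NB4 against 10.4 and 9.43 RPKM in MM6 (log2 difference 1.31, limma adjusted p = 0.000255). ZC3H13, which anchors the writer complex in the nucleus, was at 30.5 and 29.8 RPKM in NB4 against 10.9 and 10.8 RPKM in MM6 (log2 difference 1.39, limma adjusted p = 0.00014).

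Called genes lay side by side more often than the overall share. In the gene order of RefSeq (GRCh38.p14), the next tested gene after one called higher in NB4 was called higher in NB4 in 30.0% of 1662 pairs, against 13.4% of all pairs. After a gene called higher in MM6 the figure was 31.1% of 1984 pairs, against 16.0%. Runs of at least 8 adjacent tested genes called in one direction numbered 5 for each line. All genes named in this paragraph were chosen after their values were seen. The longest run, of 12 genes from SSH1 to GIT2, was higher in NB4 and included MVK. A second of 10 genes included RPL6, PTPN11, OAS1, OAS3 and OAS2, so that 3 of the interferon response genes and 1 ribosomal protein gene higher in NB4 were neighbours. RPS16 lay in a run of 10 genes higher in MM6, from GMFG to TIMM50, with a median difference of -1.88. A run of 8 higher in MM6 held S100A11, S100A9, S100A12, S100A8, S100A6, S100A4, S100A13 and S100A1. Around RPL18, the genes CYTH2, SPHK2 and DBP were called higher in NB4, whereas LMTK3, between CYTH2 and RPL18, was not.

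The neighbours of single genes showed how far each difference reached. AZU1, PRTN3 and ELANE lie in a row between LPPR3, at 127 and 132 RPKM in MM6 against 24.9 and 28.7 RPKM in NB4, and CFD (complement factor D), at 279 and 229.8 RPKM in MM6 against 19.8 and 22.5 RPKM in NB4, and all 5 were called higher in MM6. Around CDKN2A the genes MTAP and CDKN2B were called higher in MM6, CDKN2B having no read in NB4, and CDKN2B-AS1 between CDKN2A and CDKN2B was not called. MIR31HG, the next listed gene on the far side of MTAP, was at 22.3 and 22.8 RPKM in NB4 against 0.0195 and 0.0357 RPKM in MM6 and was called higher in NB4. Around FLT3, the genes GSX1, URAD, PAN3-AS1 and PAN3 were called higher in MM6, and ATP5EP2, between GSX1 and URAD, was not called. PAN3, a subunit of an RNA deadenylase, was at 298 and 318 RPKM in MM6 against 29.9 and 27.2 RPKM in NB4, and GSX1, a homeobox gene, at 29.4 and 47.3 RPKM in MM6 with no read in NB4. RCBTB2, the second listed gene beyond RB1, was at 9.02 and 9.13 RPKM in NB4 with no read in MM6.

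**Figure D5:**
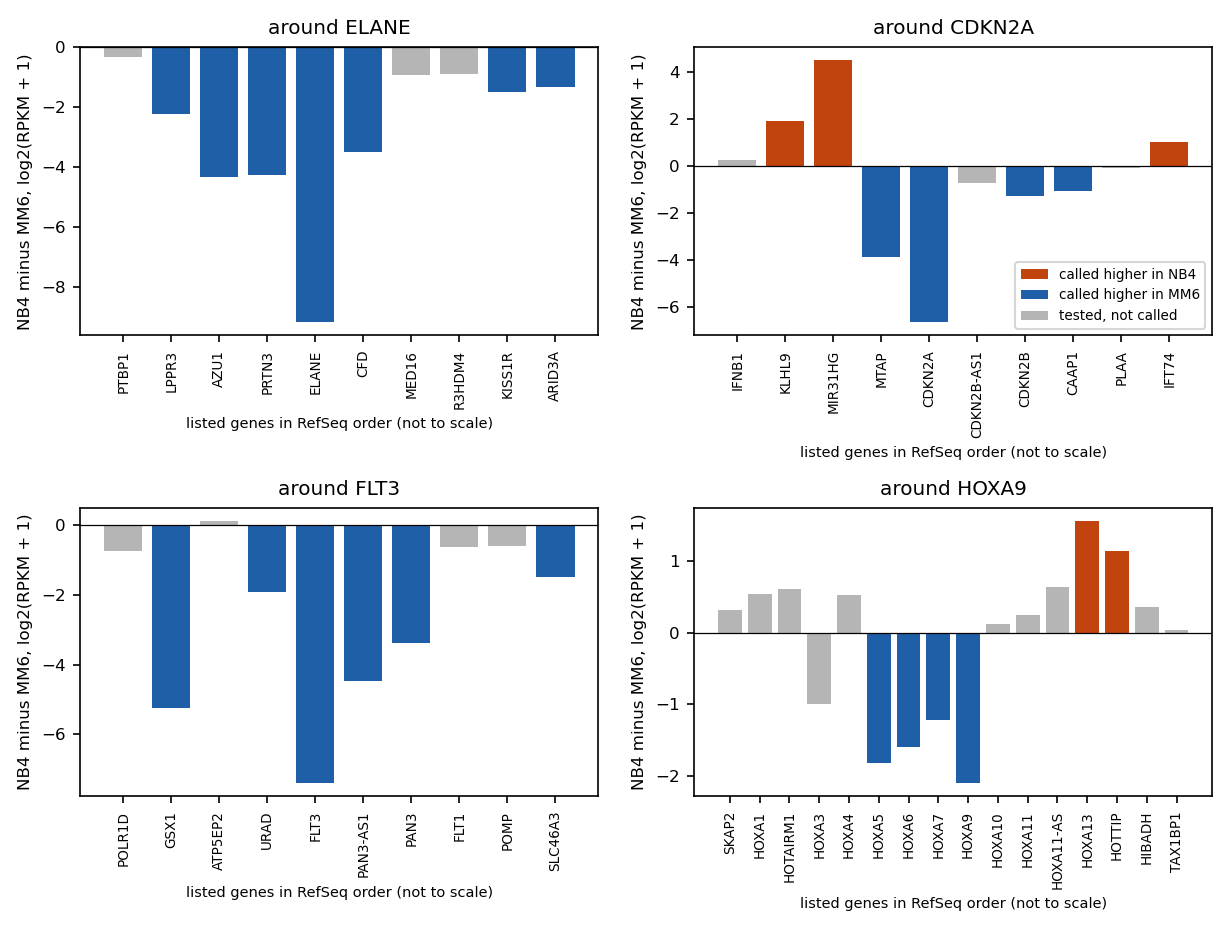
Differences between the lines (NB4 minus MM6 on the log2(RPKM + 1) scale, mean of 2 libraries each) for tested genes in RefSeq order around ELANE, CDKN2A, FLT3 and HOXA9, with genes spaced evenly and not to scale. Bars are coloured where a gene was called higher in NB4 or in MM6 and grey where it was not called; the row from LPPR3 to CFD and the genes from HOXA5 to HOXA9 are all called higher in MM6, while HOXA13 and HOTTIP are called higher in NB4.

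Markers of other cell types were low in level with few exceptions. The summed T and NK cell markers were 51.9 and 50.2 RPKM in NB4 and 6.71 and 4.69 RPKM in MM6, nearly all of it CD3D, a chain of the T cell receptor complex, at 46.9 and 45 RPKM in NB4 against 0.0566 and 0.0518 RPKM in MM6 (log2 difference 5.48, limma adjusted p = 1.21e-05). PRF1, perforin, was at 2.12 and 2.29 RPKM in NB4 against 0.0273 and 0 RPKM in MM6, and CD8A was at 5.86 and 3.95 RPKM in MM6 against 1.13 and 1.45 RPKM in NB4. Of the B and plasma cell markers, summing to 13.4 and 12.2 RPKM in NB4 and 7.49 and 8.74 RPKM in MM6, CD79B was at 11.6 and 10.7 RPKM in NB4 against 3.38 and 3.27 RPKM in MM6. Erythroid and megakaryocyte markers summed to 10.4 and 11 RPKM in NB4 and 11.5 and 12.2 RPKM in MM6, with ITGA2B at 5.83 and 6.34 RPKM in NB4 against 0.352 and 0.127 RPKM in MM6. EPOR was at 8.31 and 9.81 RPKM in MM6 against 2.27 and 1.8 RPKM in NB4. Fibroblast, epithelial and endothelial markers summed to 19.2 and 18.9 RPKM in NB4 and 28.4 and 32.5 RPKM in MM6, with EPCAM at 9.27 and 10.2 RPKM in NB4 against 0.122 and 0.201 RPKM in MM6. Over these 4 lists 5 genes were called higher in NB4 and 3 in MM6 of 12 tested.

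The line differences were then read in the 4 METTL14 knockdown libraries, which share no library with the controls but the same lines. Some MM6 replicate gaps recurred there by number. EGR1 was at 420 and 97.8 RPKM in MM6 control replicates 1 and 2 and at 359 and 170 RPKM in the knockdown ones. MCL1 was at 445 and 119 and at 502 and 116 RPKM. The gap of MX1 did not recur, at 190 and 392 and at 150 and 131 RPKM. For genes that repeat a gap, which were not counted, the knockdown libraries are not a separate check. METTL14 was at 8.35 and 8.35 RPKM in the NB4 knockdown libraries and 6.54 and 6.55 RPKM in those of MM6, all below the controls. There 12267 genes were tested, 1503 (12.3%) were called higher in NB4 and 1823 (14.9%) higher in MM6. Of the 1671 genes called higher in NB4 in the controls, 1606 were tested there, 1596 had the same sign and 1224 were called again. Of the 1986 called higher in MM6, 1900 were tested, 1897 had the same sign and 1540 were called again. No gene of either set was called in the opposite direction. MPO differed by 4.83 in controls and 5.43 in knockdown libraries, ELANE by -9.17 and -9.72, FLT3 by -7.41 and -7.33, and CDKN2A by -6.63 and -6.38. Some differences were not called there. CSF3R was 1.27 in controls and -0.21 in knockdown libraries, BCL2A1 1.16 and -0.02, and CD300A, an inhibitory receptor, 1.57 and -0.06. Others kept a similar size but did not pass the adjusted p there. MCL1 was -2.31 in controls and -1.98 in knockdown libraries (limma adjusted p = 0.0731), and MYC 1.45 and 1.47 (limma adjusted p = 0.0704). Whether the line difference itself changed with METTL14 knockdown was not tested.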

How the data were processed

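Poly(A) RNA of NB4 and MM6 was sequenced as single-end reads of 50 bp after directional library preparation from 100 ng of total RNA, per the labels' protocols. The sources used here name no aligner, read counter, genome build or strand setting of the counting. The authors deposited RPKM per library in 1 table per line; group means of size-factor-scaled reads, a signal column the authors computed, were used only to recover reads. RPKM resolved into whole reads for 100% of values within 0.01, and gene lengths agreed between the tables over 16409 genes (relative spread 6.9e-14), so the tables were joined on gene ID. Library totals were 23272126 to 28814911 reads; a floor is 3 reads per library, and intervals and floors cover counting error only.

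Genes at 1 RPKM or more in 2 of 4 libraries were fitted on log2(RPKM + 1) with limma 3.58.1 (R 4.3.3), 2 libraries against 2, with Benjamini-Hochberg adjustment over all tested genes, two-sided; a log2 difference on this scale understates that of low genes. Calls needed an adjusted p below 0.05 and 2-fold. The main fit used no count model, since the deposited unit is RPKM, and voom on the recovered reads was run as an alternative. The same fit was made in the knockdown libraries, where its alternatives were added after seeing the data. Replicate numbers come from the labels, which state no pairing.

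The comparison, the 38 gene lists and the alternatives were chosen with earlier results of these data known. Named genes are a fixed set of markers, the 12 with the largest difference in each direction (mean of 10 RPKM or more in the higher line, no overlap, no placeholder symbol) and up to 6 called members of each list with the largest difference (for a list with none called, the 3 with the highest level), apart from some not reported here; others were named after their values were seen. CD34 was not analysed here. Promoters and gene order came from RefSeq tables of GRCh38.p14, where 16662 of 16726 genes matched by ID; of 8 promoters looked up, 5 were found (not ELANE, MPO or HLA-DRA). Python 3.11.15, pandas 2.3.3, numpy 2.4.6, scipy 1.17.1 and matplotlib 3.10.9 were used.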

Additional observations from a re-analysis of the deposited data

How the results depend on the processing

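With a log2 difference of 1 as limma's null hypothesis (treat), the controls gave 855 genes higher in NB4 and 1181 higher in MM6, and the knockdown libraries 653 and 976. With a filter of 5 RPKM the knockdown libraries gave 1200 higher in MM6, fewer genes being tested. The other alternatives kept the counts of the controls within 1.5 times: 1224 to 2177 higher in NB4 and 1387 to 2388 higher in MM6, the extremes being the filter of 5 RPKM and voom. Of 76 counts of list members, 26 moved by over 1.5 times with treat, 11 with the filter of 5 RPKM, up to 3 with each other alternative and 3 to 6 when 1 library was left out. Of 204 named genes, 36 lost their call with treat, up to 4 with each other alternative and 6 to 11 when 1 library was left out. Leaving out each library gave 1653 to 1776 and 1939 to 2055 in the controls, and 1414 to 1743 and 1777 to 1971 in the knockdown libraries. With the replicate number as a block, 1675 and 1996 genes were called in the controls and 1512 and 1852 in the knockdown libraries. Deviations of same-numbered NB4 and MM6 control replicates correlated at 0.0043. No correlation was computed between same-numbered control and knockdown replicates of one line. Some genes repeated their replicate gap there, such as ELANE in NB4 and MCL1 in MM6, while MX1 in MM6 did not. Uncalled genes near 0 changed sign: METTL14 was -0.0267 with median-of-ratios scaling and from -0.0478 to 0.112 when 1 library was left out, and TOP2A was 0.134 with quantile normalization and from -0.0608 to 0.00018 when 1 library was left out. No other of the 204 named genes compared reversed in the alternatives run. Genes named after their values were seen, such as KLF6 and JUN, were not among those compared. In MM6 replicate 2 these genes lay below both NB4 libraries, although replicate 1 lay above. KLF6 was at 3.67 RPKM there against 17.7 and 17.5 RPKM in NB4, and JUN at 16.9 against 27.3 and 28.1 RPKM. With 2 libraries a group, the spread of single genes rests on moderation across genes, and levels near the floor of 3 reads are not resolved.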

Other observations

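Cytokine, clotting and lipid mediator genes were also divided between the lines. CCL5, a chemokine for T cells and monocytes, was at 450.0 and 430.3 RPKM in NB4 against 56.1 and 36 RPKM in MM6 (log2 difference 3.26, SE 0.21, limma adjusted p = 0.000181). IL16 was at 6.61 and 6.67 RPKM in NB4 against 0.482 and 0.588 RPKM in MM6. EBI3, a subunit shared by several cytokines, was at 4.4 and 4.97 RPKM in NB4 against 0.406 and 0.236 RPKM in MM6. INHBA, the activin A subunit, was at 22.6 and 23.9 RPKM in MM6 against 2.49 and 2.27 RPKM in NB4. IL23A was at 14.9 and 14.1 RPKM in MM6 against 1.76 and 1.07 RPKM in NB4. Of 23 tested chemokine and cytokine genes, 8 were called higher in NB4 and 6 in MM6; 4 had MM6 replicates at least 2-fold apart, replicate 1 being the higher. F3, the tissue factor that starts coagulation, was at 14.1 and 12.5 RPKM in NB4 against 3.03 and 3.8 RPKM in MM6 (log2 difference 1.69, limma adjusted p = 0.000253). It was the only one of 12 tested coagulation and fibrinolysis genes called higher in NB4 in limma's test with all 4 libraries, and 2 were called so without MM6 replicate 1. PLAU, the urokinase that activates plasminogen, was at 80.5 and 63.3 RPKM in MM6 against 5.5 and 5.47 RPKM in NB4 (log2 difference -3.48, limma adjusted p = 4.61e-05). THBD (thrombomodulin) was at 17.7 and 14.3 RPKM in MM6 against 1.41 and 1.29 RPKM in NB4. PROS1 (protein S) was at 6.56 and 5.55 RPKM in MM6 against 0.0239 and 0.0194 RPKM in NB4. SERPING1 was at 9.12 and 15 RPKM in MM6 against 0.561 and 0.759 RPKM in NB4. ANXA2 was at 95 and 114 RPKM in MM6 against 33.6 and 34.2 RPKM in NB4; 6 were called higher in MM6.

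In eicosanoid synthesis the enzymes downstream of arachidonic acid differed by branch. TBXAS1, the thromboxane synthase, was at 25.7 and 26.9 RPKM in NB4 against 2.56 and 1.63 RPKM in MM6 (log2 difference 3.16, limma adjusted p = 8.97e-05). PTGS1, the constitutive cyclooxygenase, was at 5.37 and 5.65 RPKM in NB4 against 0.197 and 0.122 RPKM in MM6 (log2 difference 2.49, limma adjusted p = 4.02e-05). PTGIS, the prostacyclin synthase, was at 30.5 and 33.7 RPKM in MM6 against 0.282 and 0.452 RPKM in NB4 (log2 difference -4.60, limma adjusted p = 1.73e-05). PLA2G4A, the phospholipase that frees arachidonic acid, was at 11.5 and 13.9 RPKM in MM6 against 1.53 and 1.67 RPKM in NB4. PTGS2, the inducible cyclooxygenase, was at 7.81 and 1.09 RPKM in MM6 against 0.019 and 0.0541 RPKM in NB4; its limma adjusted p of 0.038 rose to 0.0701 with no filter, 0.0607 with all 8 libraries in one model, 0.147 without NB4 replicate 1 and 0.14 without NB4 replicate 2, where the call was lost. Its difference was -1.01 without MM6 replicate 1 and -3.09 without MM6 replicate 2. Of 13 tested, 3 were called higher in NB4 and 5 in MM6; 3 were called higher in MM6 without either NB4 library. The tumour antigen PRAME was at 43 and 44.2 RPKM in MM6 against 0.741 and 0.715 RPKM in NB4 (log2 difference -4.69, SE 0.08, limma adjusted p = 1.37e-05). MAGED1 was at 40.4 and 29.5 RPKM in MM6 against 6.35 and 6.15 RPKM in NB4. DDX43 was at 5.96 and 4.98 RPKM in MM6 against 0.428 and 0.347 RPKM in NB4. These were the 3 called of 4 tested genes in a list of cancer-testis antigens and related genes. None of the list was higher in NB4 by limma, at an unadjusted p below 0.05 or by voom. Of 15 tested Siglec, LILR and related receptors, 3 were called higher in NB4 and 4 in MM6, against 13.4% and 16.0% of all tested genes. SIGLEC5 was at 4.54 and 3.55 RPKM in NB4 against 0.0832 and 0.259 RPKM in MM6. CD300A was at 13.5 and 13.4 RPKM in NB4 against 3.3 and 4.48 RPKM in MM6. LILRB4 was at 13.1 and 18.6 RPKM in MM6 against 0.234 and 0.182 RPKM in NB4. LAIR1 was at 63.1 and 65.8 RPKM in MM6 against 11.4 and 11.2 RPKM in NB4. CD300LF was at 11.4 and 8.53 RPKM in MM6 against 0.764 and 1.11 RPKM in NB4. SIGLEC1 was at 5.51 and 17.8 RPKM in MM6 against 1.61 and 1.48 RPKM in NB4; its difference was -2.88 without MM6 replicate 1 and -1.35 without MM6 replicate 2, and its call was lost without NB4 replicate 1 or 2 (limma adjusted p = 0.0704 and 0.0757).

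ELANE and APP were unequal between the NB4 replicates. ELANE had 1 read in replicate 1 and 182 reads in replicate 2 of the NB4 controls, and 1 and 148 reads in replicates 1 and 2 of the NB4 knockdown libraries. APP had 1 and 76 reads in the controls and 0 and 40 reads in the knockdown libraries. Over all listed genes these were the 2 whose reads plus 1 were at least 20 times higher in control replicate 2 than in replicate 1, and no gene was 20 times higher in replicate 1. Both were abundant in MM6, and the level in NB4 replicate 2 was 0.413% of the mean MM6 level for ELANE and 0.374% for APP. Other genes with at least 100 RPKM in MM6 gave different shares in NB4 replicates 1 and 2. Some were also higher in replicate 2: 0.00875% and 0.0332% for VCAN, 0.0136% and 0.0608% for S100A8, and 0.212% and 0.604% for SLPI. These rest on few reads, such as 3 and 14 for VCAN and 4 and 22 for S100A8. FLT3 was nearly equal, at 0.508% and 0.493%. IFI30 was higher in replicate 1, at 0.343% and 0.139%, and PTGDS was at 0 in both. The source of these reads was not tested.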
